A study of Gallus gallus with 4 samples.

Results

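The apelin receptor gene APLNR and the venous genes NR2F2 and NRP2 were followed through 4 stages of chick blood vessel formation. They are 3 genes of the 11773 that reached 1 FPKM in at least 1 library, taken by name from a table of 17108 gene rows, and all 3 reached that level. The genes were chosen by their FPKM in these same libraries, because APLNR was lower at the last stage while most endothelial genes were higher. Their differences between stages are therefore a description and carry no test. FPKM counts fragments scaled by transcript length and by a library total, so genes can be compared per length within a library. Comparisons between libraries also depend on how the libraries were scaled, which the sources used here do not give.

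RNA was sequenced from the area vasculosa, the ring of yolk sac outside the chick embryo where the first blood and vessels form, at HH10 to HH13 of the Hamburger-Hamilton series of chick development. The embryos carried no treatment or genetic change named in the labels, and all were grown to their stage in a CO2 incubator before the ring was cut out. There was 1 library per stage, so no value has a replicate error, and the sources used here do not give the number or sex of the embryos behind a library. The tissue is a mixture of vessel, blood, endoderm and mesoderm cells, so for every gene fewer cells of a type and less RNA per cell cannot be told apart.

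APLNR encodes a G protein-coupled receptor for the peptides apelin and ELABELA (gene APELA). It is known from early mesoderm and from endothelial cells, in veins and at sprouting fronts, and in zebrafish it is needed for the movement of cells during gastrulation. NR2F2 encodes COUP-TFII, an orphan nuclear receptor that in mouse keeps venous endothelium from taking on arterial character by restraining Notch signalling, and that is also active in mesenchyme. NRP2 encodes neuropilin-2, a cell surface receptor for class 3 semaphorins and for VEGF-C, which in chick vessels becomes associated with veins while its relative NRP1 becomes associated with arteries.

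The libraries differed in more than stage. Total FPKM lay between 762831 and 952203, and between 10673 and 11308 rows reached 1 FPKM. The HH10 library stood apart, with 5.94% of its FPKM on 5.8S ribosomal RNA rows against 0.574% to 1.46% in the others. The highest unnamed row, the row without a gene symbol that was highest in HH10, held 13.3% of the HH10 FPKM. In the others it held 0.668% to 1.26%. HH10 also had 6 zeros among the 7 chromosome W rows that averaged at least 1 FPKM over the later libraries. None of the 7 was at 0 in HH11, HH12 or HH13. APLNR, NR2F2 and NRP2 lie on chromosomes 5, 10 and 7. Because HH10 stood apart, the differences of the 3 genes and the counts of the vessel and pathway lists are given from HH11 as well. Markers of the labelled tissue were present in every library. The summed FPKM of 9 erythroid genes, globins among them, was 1750, 323, 15167 and 34440 in stage order, that of 20 yolk sac endoderm genes 13922, 6043, 18328 and 51726, and that of 24 endothelial genes 319, 152, 273 and 619. The erythroid, endoderm and endothelial sums were each lowest in HH11 and highest in HH13. SCL and LMO2, blood and endothelial progenitor factors, stand in both the erythroid and the endothelial list, so those sums are not separate measures.

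APLNR was the gene of the 3 that was lower at the end. Its row, ENSGALG00000004841, lies on chromosome 5 at 16355389 to 16356501 of build galGal4, a locus of 1113 bases with no other row on it. In stage order it had 38.0, 38.4, 26.3 and 13.3 FPKM. The HH10 and HH11 libraries were level, HH12 was lower and HH13 the lowest, 2.86-fold lower in FPKM than HH10. In HH10, 78.5% of the other genes were below APLNR, and in HH13 51.9% were.

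**Figure D1:**
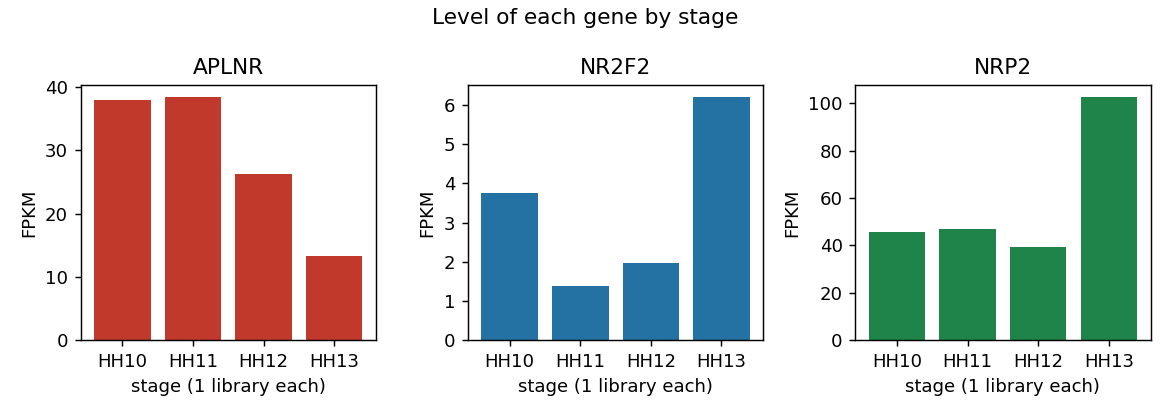
FPKM of APLNR, NR2F2 and NRP2 at each stage, 1 library per bar and a separate axis from 0 for each gene. APLNR stands at 38.0, 38.4, 26.3 and 13.3 FPKM, NR2F2 is lowest in HH11 at 1.38 FPKM, and NRP2 stands at 102.6 FPKM in HH13 against 39.4 to 46.8 FPKM before.

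On the log2(FPKM + 1) scale, which understates differences of genes with low values, APLNR differed by -1.45 in HH13 from HH10. The difference from HH11 was -1.46, so HH10 and HH11 as the early library gave nearly the same value. A gene was called higher or lower when it differed at least 2-fold on this scale. By that rule 4.06% of all genes were lower in HH13 than in HH10, and APLNR held place 222 from the most lowered of 11773. Against HH11, 5.39% of all genes were lower, and APLNR was among them. The 2 steps that made up the difference were each under 2-fold, with -0.53 from HH11 to HH12 and -0.93 from HH12 to HH13. Those steps are set beside 1.58% and 2.95% of all genes called lower.

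NR2F2 was the least abundant of the 3 and had another course. Its row, ENSGALG00000007000, lies on chromosome 10 at 15328163 to 15333861. From first to last stage it had 3.76, 1.38, 1.96 and 6.20 FPKM. The HH11 and HH12 libraries were low, HH10 stood between, and HH13 was the highest. Only 12.9% of the other genes were below NR2F2 in HH11, and 31.5% were in HH13. HH13 against HH10 was no call, with a log2 difference of 0.60. HH13 was called higher than HH12, by 1.28, and higher than HH11, by 1.60. The same calls were made for 8.53% and 13.1% of all genes. HH11 lay 2.72-fold below HH10 in FPKM, but the log2(FPKM + 1) difference of -0.9993 fell just short of the 2-fold rule, which 4.32% of all genes met.

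NRP2 was the most abundant at each stage. Its row, ENSGALG00000008621, lies on chromosome 7 at 12175545 to 12233520. Its levels were 45.6, 46.8, 39.4 and 102.6 FPKM in stage order. The first 3 libraries lay close together and HH13 stood alone above them. The log2 difference was 1.15 from HH10 to HH13 and 1.36 from HH12 to HH13, and both were called higher, beside 9.39% and 8.53% of all genes. From HH11 to HH13 it was 1.12, also called. From HH10 to HH11 it was 0.04, and from HH11 to HH12 it was -0.24. In HH13, 92.2% of the other genes were below NRP2.

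In the order of levels, NRP2 stood above APLNR and APLNR above NR2F2 in every library. NRP2 was 1.201 times APLNR in HH10, 1.22 times in HH11, 1.498 times in HH12 and 7.73 times in HH13. In the 2 earliest libraries these neighbours were nearly level, and with 1 library each their order there cannot be set against an error. APLNR was 10.1, 27.8, 13.4 and 2.14 times NR2F2 in stage order, so the 2 approached each other at HH13.

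The authors' deposited table gives a q-value for each pair of stages, made without replicates of a stage. In the authors' deposited table no q-value of these genes was at or below 0.05 in any of the 6 pairs, while between 21 and 198 of the 17108 rows were. The lowest in the authors' deposited table were 0.336 for NRP2 between HH12 and HH13, 0.576 for APLNR between HH11 and HH13, and 0.887 for NR2F2 between HH11 and HH13.

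Endothelial genes gave the comparison by which APLNR was chosen, so its contrast with them here restates that choice. Of 31 listed pan-endothelial genes, 25 were in the table by name and 24 reached 1 FPKM. In HH13, 13 of the 24 were called higher than in HH10 and 0 lower, beside 9.39% and 4.06% of all genes, with a median log2 difference of 1.07 against 0.00 over all genes. Against HH11, 22 were called higher and 1 lower, beside 13.1% and 5.39%, with a median of 1.96. VWF, the clotting factor carrier stored by endothelium, had the widest difference from HH10, at 0.327, 0.0899, 1.45 and 8.51 FPKM. Only S1PR1, the receptor for sphingosine-1-phosphate, was lower in HH13 than in HH10 among the 24, at 13.4, 27.6, 16.4 and 10.99 FPKM. Its difference from HH10, -0.27, was no call, but its difference from HH11, -1.25, was the 1 lower call of the list, beside -1.46 for APLNR.

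The HH11 library was where most endothelial genes were lowest. It was the lowest library for 20 of the 24 genes, 83.3%, against 26.5% of all genes. Of the 24, 10 were called lower in HH11 than in HH10 and 1 higher, beside 4.32% and 2.17% of all genes, 509 and 255. With every library set to the same total FPKM the split over all genes turned to 322 lower and 506 higher. NR2F2 shared this low point. APLNR and NRP2 did not, and differed from HH10 by 0.02 and 0.04 there, with no fixed direction, since median-of-ratios scaling gave -0.03 and -0.01. S1PR1 and CAV1, which encodes the coat protein of caveolae, were the 2 endothelial genes above their HH10 level in HH11. From HH11 to HH12, 7 of the 24 were called higher and 0 lower, beside 4.42% and 1.58% of all genes. From HH12 to HH13, 17 were called higher and 0 lower, beside 8.53% and 2.95%.

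**Figure D2:**
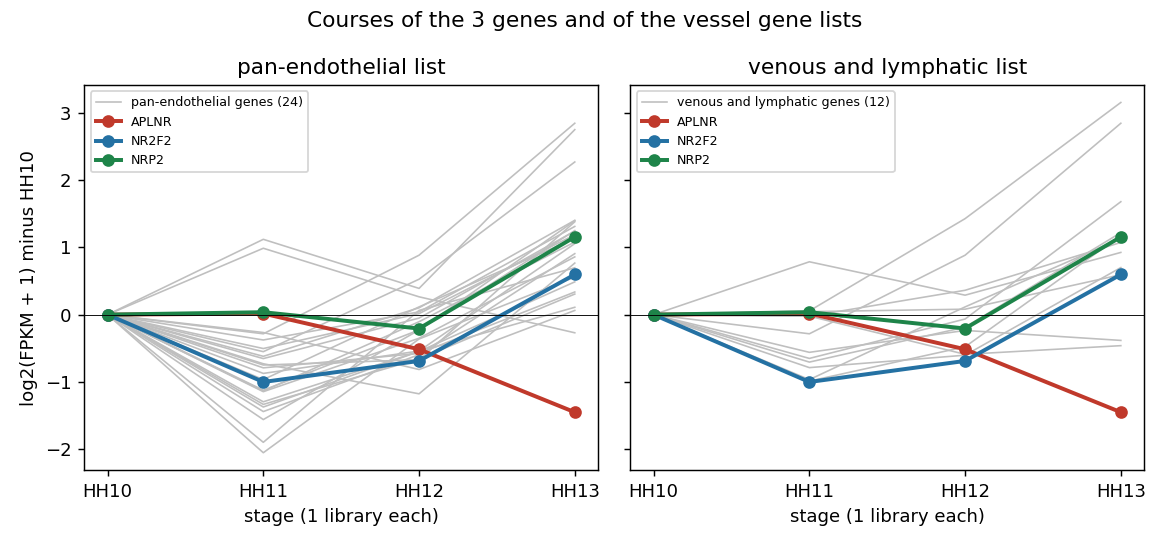
Difference of log2(FPKM + 1) from HH10 over the 4 stages, with grey lines for the 24 endothelial genes at left and the 12 venous and lymphatic genes at right. NR2F2 is at -0.9993 in HH11, APLNR and NRP2 stay within 0.04 of HH10 there, and in HH13 APLNR at -1.45 lies below every grey line.

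Setting each gene against endothelial genes of the same library removes the scaling of libraries. CDH5 encodes the cadherin of endothelial junctions. The FPKM of APLNR was 1.78 times that of CDH5 in HH10, 5.30 times in HH11, 1.90 times in HH12 and 0.325 times in HH13. The ratio was highest in HH11 and lowest in HH13, a 16.3-fold span. CDH5 itself was lowest in HH11, at 7.25 FPKM, and highest in HH13, at 40.9. A gene with the same FPKM in every library would thus also have its highest ratio in HH11 and its lowest in HH13. APLNR itself had 38.4 FPKM in HH11 and 13.3 in HH13. APLNR lay above 22, 24, 22 and 14 of the 24 endothelial genes in stage order. Among the 23 endothelial genes other than CDH5, VWF alone had a wider span of that ratio, 16.8-fold, and was lowest in HH11 and highest in HH13. S1PR1 came next after APLNR with a 14.2-fold span, and like APLNR its ratio was highest in HH11 and lowest in HH13, at 0.629, 3.81, 1.18 and 0.269 in stage order.

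The ratio of NR2F2 to CDH5 hardly moved. The stages gave 0.176, 0.191, 0.142 and 0.152 in order. The 4 libraries thus lay within a 1.34-fold span, while CDH5 itself went from 7.25 to 40.9 FPKM. Of the 23 other endothelial genes, only MMRN2, an endothelial matrix protein gene, had a smaller span, 1.16-fold. NRP2 was 2.13, 6.45, 2.85 and 2.51 times CDH5. The HH11 library, where CDH5 was lowest, stood out for NRP2, and the others lay close together.

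**Figure D3:**
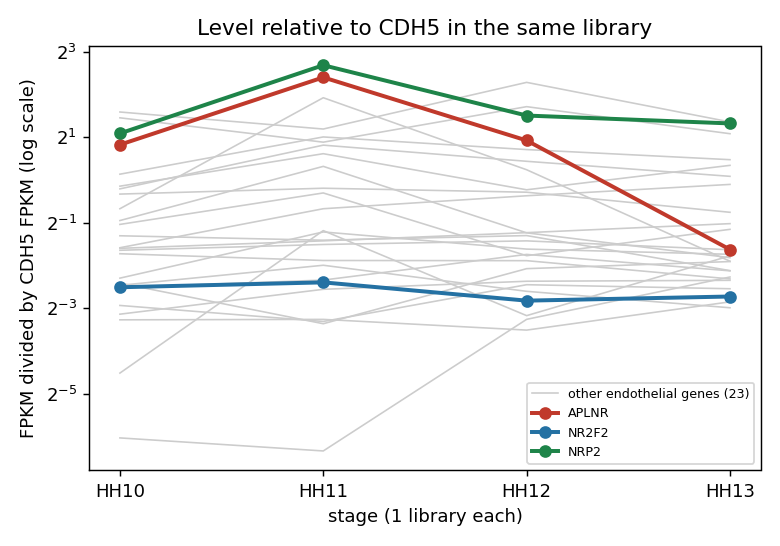
FPKM divided by CDH5 FPKM in the same library, on a log scale, with grey lines for 23 other endothelial genes. NR2F2 runs nearly flat between 0.142 and 0.191, whereas APLNR goes from 5.30 in HH11 to 0.325 in HH13. CDH5 itself was lowest in HH11 and highest in HH13.

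With the median of the 24 endothelial genes in place of CDH5 the picture was alike. That median, too, was lowest in HH11 and highest in HH13. On the log2 scale APLNR lay 2.26, 3.24, 2.09 and 0.12 above that median in stage order. NR2F2 lay -0.77, -0.81, -1.11 and -0.87 from it. NRP2 lay 2.52, 3.52, 2.66 and 2.98 above it.

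The other genes of veins and lymphatic vessels were mostly higher in HH13. Of 15 listed, 14 were in the table and 12 reached 1 FPKM. In HH13, 7 of the 12 were called higher than in HH10 and 0 lower, beside 9.39% and 4.06% of all genes, with a median of 1.10. The 7 became 3 with a pseudocount of 5 FPKM and 2 at 4-fold. Against HH11, 8 were called higher and 0 lower, beside 13.1% and 5.39%, with a median of 1.70. TEK, VWF and FLT4 are endothelial genes in a wider sense too, and TEK and VWF stand in both lists. LYVE1, a hyaluronan receptor of lymphatic and some venous endothelium, had 0.245, 0.294, 2.34 and 10.05 FPKM. STAB2, a scavenger receptor of sinusoidal endothelium, had 3.66, 1.97, 3.46 and 13.9 FPKM. EMCN, a sialomucin of veins and capillaries, had 3.66, 1.35, 2.35 and 9.52 FPKM. All 3 were highest in HH13. SMARCA4, the ATPase of a chromatin remodelling complex that in mouse promotes NR2F2 expression, had 31.5, 31.0, 20.6 and 22.6 FPKM, and neither it nor AGGF1 was called. EPHB4, the venous ephrin receptor gene, was not analysed here.

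Arterial and Notch genes were fixed as the counterpart. Of 26 listed, 19 reached 1 FPKM, and in HH13 5 were called higher than in HH10 and 2 lower, beside 9.39% and 4.06% of all genes, with a median of 0.14. Against HH11, 8 were called higher and 1 lower, beside 13.1% and 5.39%, with a median of 0.76. UNC5B, a netrin receptor gene of arteries, was the most abundant at 36.6, 36.5, 21.8 and 23.7 FPKM. GJA5, a gap junction gene of arteries, had the widest difference upward, with 0.188, 0.0215, 0.571 and 15.5 FPKM. FOXC2, a forkhead factor of mesenchyme and vessels, had 3.08, 0.808, 0.0596 and 0.503 FPKM. NOTCH1 itself had 10.8, 6.23, 4.18 and 11.3 FPKM, close together in the first and last libraries. From HH12 to HH13, 8 of the 19 were called higher and 0 lower, beside 8.53% and 2.95% of all genes.

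Beyond the receptor, the apelin pathway list holds G proteins, arrestins, receptor kinases, peptidases and related receptors. Neither ligand gene, APLN or APELA, was analysed here. Of the 28 pathway genes listed, these 2 ligand genes included, 21 reached 1 FPKM. In HH13, 1 of the 21 was called higher than in HH10 and 0 lower, beside 9.39% and 4.06% of all genes, with a median of -0.13. Against HH11, 2 were called higher, ACE and CXCR4, and 1 lower, GRK6, beside 13.1% and 5.39%, with a median of -0.19. APLNR acts mainly through inhibitory G proteins, and their alpha subunit genes were not called in any comparison. GNAI2 had 165, 200.1, 149 and 145 FPKM, GNAI1 52.0, 57.5, 54.0 and 44.05, and GNAI3 91.4, 115.7, 89.2 and 83.5. All 8 G protein genes stayed within 2-fold of HH10 in HH13.

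Among kinases and peptidases of the pathway, GRK6 and ACE differed most in HH13. Of 4 kinases 0 were called against HH10, and of 6 peptidases 1 was called higher and 0 lower. Over all genes 9.39% were called higher and 4.06% lower. The medians of the kinases and peptidases were -0.09 and 0.05. GRK6, a kinase that phosphorylates active G protein-coupled receptors, had 17.5, 19.8, 14.6 and 8.49 FPKM. Its difference was -0.96 from HH10, short of a call, and -1.14 from HH11, a call. ACE, the angiotensin-converting enzyme of endothelium, was the 1 gene called higher than in HH10, with 16.6, 7.60, 17.9 and 45.7 FPKM. CXCR4 and CXCR7, G protein-coupled receptors for the chemokine CXCL12, had 19.4, 10.4, 17.4 and 32.7 FPKM and 22.2, 26.8, 28.7 and 25.4 FPKM.

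NR2F2 was compared with its relatives and cofactors. NR2F1, which encodes the close relative COUP-TFI, had 1.34, 0.358, 0.543 and 2.80 FPKM. Like NR2F2 it was lowest in HH11 and highest in HH13, and NR2F2 stood between 2.21 and 3.86 times above it. NR2F6, the third COUP-TF-type gene, was far more abundant, with 176, 224, 194 and 190.1 FPKM. It was 46.8 times NR2F2 in HH10, 162 times in HH11 and 30.7 times in HH13. NR2C1 and NR2C2, the testicular receptor genes, had 12.2 to 15.7 FPKM and 3.36 to 5.90 FPKM, and NR2E1 and NR2E3 were under 1 FPKM in every library.

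Relatives and cofactors were also counted as a list. Of 14 relatives and cofactors past 1 FPKM among 20 listed, 0 were called higher and 0 lower in HH13 than in HH10, beside 9.39% and 4.06% of all genes, with a median of -0.09. RXRA and RXRG, retinoid X receptors that pair with COUP-TFs, had 11.6 to 14.1 FPKM and 36.1 to 46.2 FPKM. NR2F1 was the 1 gene of the 14 called higher in HH13 than in HH11, by 1.49, and the 1 called higher than in HH12, by 1.30, beside 13.1% and 8.53% of all genes.

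NRP2 works with other receptors at the cell surface. NRP1 had 10.6, 3.87, 3.49 and 13.9 FPKM, low in HH11 and HH12. NRP2 was 4.32, 12.1, 11.3 and 7.39 times NRP1 per length in stage order. FLT4, the receptor for VEGF-C that pairs with NRP2, had 12.1, 21.5, 14.96 and 23.8 FPKM. Unlike most endothelial genes it was higher in HH11 than in HH10. KDR, the main VEGF-A receptor, had 6.48, 1.97, 3.74 and 8.25 FPKM. FLT4 was thus 1.86 times KDR in HH10, 10.9 times in HH11, 3.996 times in HH12 and 2.88 times in HH13.

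Plexins carry the signal of semaphorins bound by neuropilins. PLXND1, the plexin of endothelium, had 6.51, 2.87, 4.63 and 20.01 FPKM, and PLXNA1 had 48.0, 60.7, 32.2 and 29.8 FPKM. They went opposite ways in HH13. Over the 20 partners past 1 FPKM of 26 listed, 2 were called higher in HH13 than in HH10 and 0 lower, beside 9.39% and 4.06% of all genes, with a median of 0.37. Against HH11, 7 were called higher and 2 lower, beside 13.1% and 5.39%, with a median of 0.62. From HH12 to HH13 5 were called higher and 1 lower, beside 8.53% and 2.95%. ITGB1, an integrin subunit, was the most abundant partner at 91.9 to 136 FPKM, and ITGA9, the integrin chain that binds VEGF-C, had 8.10, 6.19, 4.34 and 4.39 FPKM.

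Class 3 semaphorins are the first group of NRP2 ligands. SEMA3F, the semaphorin for which NRP2 is the main receptor, had 20.5, 21.4, 12.3 and 26.9 FPKM. SEMA3F and NRP2 were both lowest in HH12 and highest in HH13, and NRP2 stood between 2.18 and 3.81 times above it. SEMA3G had 8.80, 11.9, 14.5 and 15.4 FPKM, and SEMA3C 5.11, 8.57, 7.69 and 2.997. SEMA3A, which acts chiefly through NRP1, had 11.1, 6.13, 5.85 and 8.79 FPKM. SEMA3D had 1.16 to 3.31 FPKM and SEMA3E 0.183 to 1.42. Of these 6 genes 0 were called in HH13 against HH10, beside 9.39% higher and 4.06% lower of all genes. Against HH11, SEMA3E was called higher, by 1.03, and SEMA3C lower, at -1.26, beside 13.1% and 5.39%.

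**Figure D4:**
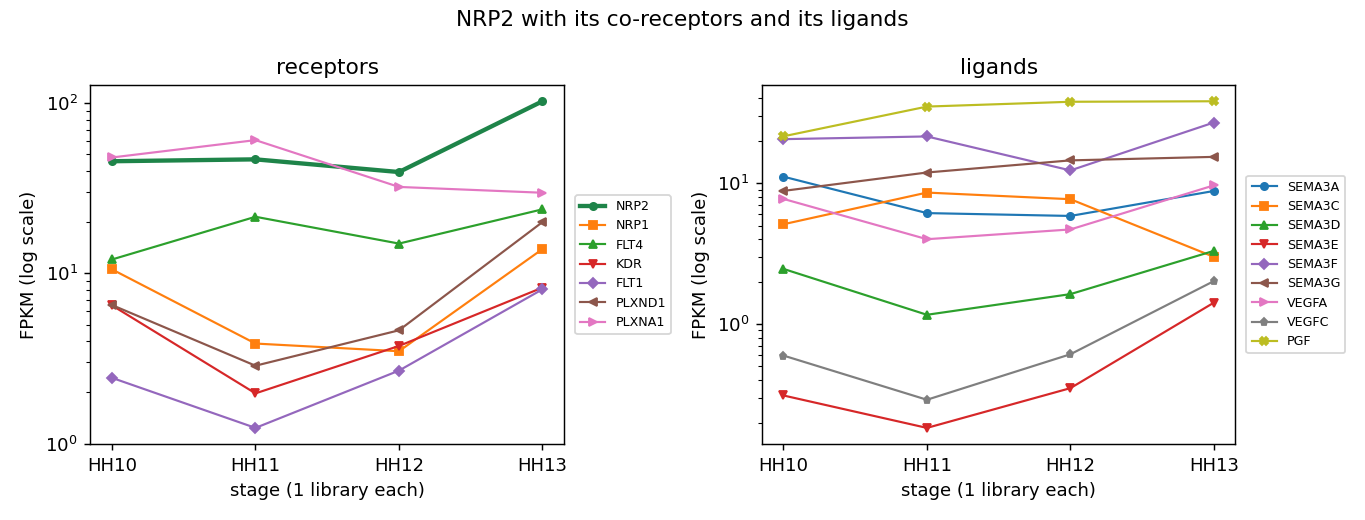
FPKM on a log scale of NRP2 with its co-receptors at left and of semaphorin and VEGF ligands at right, 1 library per stage. NRP2 is the highest receptor in HH13 at 102.6 FPKM, and VEGFC stays at or below 2.02 FPKM.

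VEGF ligands were of unequal abundance. VEGFC, the ligand of NRP2 and FLT4, had 0.598, 0.290, 0.610 and 2.02 FPKM, low throughout and highest in HH13. VEGFA had 7.72, 3.999, 4.69 and 9.64 FPKM, and PGF, which binds FLT1, 21.5, 34.9, 37.8 and 38.1. FIGF, the VEGF-D gene, was at or below 0.305 FPKM and listed at 0 in HH11.

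Genes with the closest course were searched among the 8230 named genes that reached 5 FPKM at some stage. The measure was the root mean square distance between log2(FPKM + 1) values after each gene's mean was taken off, over 4 libraries. Closest to APLNR were SOX13, PER3, UPRT, CORO2A and RAP2C, at distances of 0.090 to 0.12. SOX13, an SRY-box factor, had 10.8, 13.1, 8.33 and 3.55 FPKM. No gene of the endothelial list was among them, and the nearest of that list, S1PR1, lay at 0.45. APLNR was chosen because it differed from most endothelial genes in these libraries, so its distance from that list restates the choice.

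Closest to NR2F2 were TBX20, ZEB2, HUNK, ARAP3 and SLC16A12, at 0.043 to 0.076. TBX20, a T-box factor of lateral plate mesoderm and heart, had 5.06, 2.07, 2.62 and 8.59 FPKM, and NR2F2 stood at 0.667 to 0.746 of it in all 4 libraries. ZEB2, a zinc finger repressor of mesenchyme, had 4.38, 1.76, 2.48 and 6.83 FPKM. Closest to NRP2 were IKBKE, ST3GAL4, SEMA6D, NBR1 and AMY2A, at 0.026 to 0.084. SEMA6D, a membrane-bound semaphorin, had 9.66, 9.93, 7.95 and 20.03 FPKM. By Pearson correlation 0, 1 and 1 of the 5 genes were found again for APLNR, NR2F2 and NRP2.

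**Figure D5:**
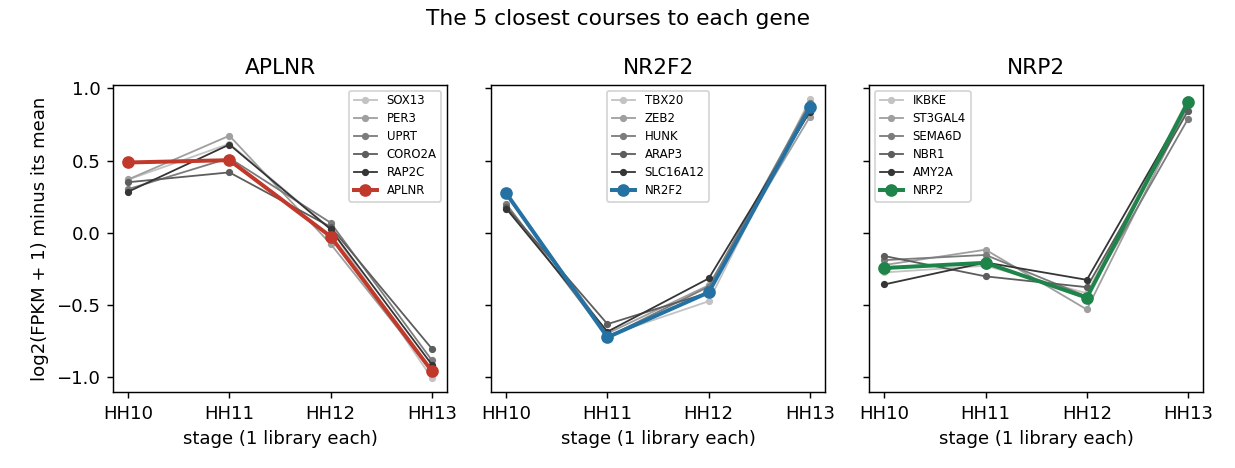
Course of each gene and of its 5 closest genes, as log2(FPKM + 1) minus the gene's own mean over 4 libraries. The grey lines lie within a root mean square distance of 0.12 of APLNR, 0.076 of NR2F2 and 0.084 of NRP2.

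Markers of other cell types moved between the same libraries. Of 26 listed lateral plate and mesenchyme genes 17 reached 1 FPKM, and their summed FPKM was 475, 465, 478 and 785 in stage order. Their median course lay 0.065 from NR2F2, against 0.20 for the endothelial list and 1.26 between the endothelial list and APLNR. The value of 1.26 restates how APLNR was chosen. Gene by gene the order was the reverse, with a median distance to NR2F2 of 0.31 for the endothelial list and 0.34 for the lateral plate list. In that list 5 of 17 were called lower in HH11 than in HH10, beside 4.32% of all genes, and 11 of 17 higher in HH13 than in HH12, beside 8.53%, with OSR1 listed at 0 in HH11 and HH12 and TWIST2 (CDERMO-1) in HH11. In HH13, 3 of the 17 were called higher than in HH10 and 0 lower, beside 9.39% and 4.06% of all genes. Below their HH10 level in HH13 were 7 of the 17, beside 50% of all genes. HAND1, a bHLH factor gene of extraembryonic mesoderm, led the list with 98.9, 67.2, 105.4 and 396 FPKM, and held most of the rise of the sum in HH13. PDGFRB, a receptor gene of mesenchyme and mural cells, had 2.80, 3.66, 3.09 and 1.34 FPKM. The 13 primitive streak and early mesoderm genes summed to 219, 270, 211 and 154 FPKM, highest in HH11 and lowest in HH13. CDX2, a caudal homeobox gene, had 112, 159, 115 and 44.8 FPKM of that sum. Unlike the sum, 9 of the 13 genes were below their HH10 level in HH11, with a median log2 difference of -0.95. Called in HH11 against HH10 were 2 higher and 6 lower, beside 2.17% and 4.32% of all genes. In HH13, 2 were called higher than in HH10 and 4 lower, beside 9.39% and 4.06%. From HH12 to HH13, 6 were called higher and 4 lower, beside 8.53% and 2.95%. Summed levels of 10 mural genes ranged from 562 to 1142 FPKM and those of 7 macrophage genes from 17.9 to 36.2. Those of 11 cardiac genes ranged from 125 to 475 and those of 9 neural genes from 35.5 to 79.9, and in HH13 the myosin light chain gene MYL4 with 380.4 FPKM and the tubulin gene TUBB3 with 63.9 made up most of these sums. Of the cardiac genes 8 of 11, and of the neural genes 8 of 9, were below their HH10 level in HH13, beside 50% of all genes. Called lower in HH13 than in HH10 were 4 cardiac and 5 neural genes, and called higher were 2 and 1. Of the mural genes 6 of 10, and of the macrophage genes 4 of 7, were called higher and 0 lower. Over all genes 4.06% were called lower and 9.39% higher. The cardiac factor gene NKX2-5 was listed at 0 in HH12, as was the neural factor gene SOX2, and OTX2 was in HH13. The part of any of these cells in the levels of APLNR, NR2F2 and NRP2 was not tested.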

How the data were processed

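The authors deposited FPKM per gene for 4 area vasculosa libraries, 1 per stage, with p-values and q-values per pair of stages, per the file headers. Per the submitters' processing notes, TopHat2 2.0.8, Cufflinks and Cuffdiff were used with build galGal4; the sources used here give neither their library scaling nor the gene annotation release. FPKM keep no read count, so depth is unknown and no counting interval is given, and a listed 0 may mean that no estimate was made. Starts are printed 1 higher than deposited, since deposited starts were taken to count from 0, as these tools write them.

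Of 17108 rows, 12585 had a gene symbol. Rows of 1 symbol were summed (77 symbols), giving 17012 genes, of which 11773 reached 1 FPKM in some library and were used. Differences were taken as log2(FPKM + 1) and called at 2-fold, with no test because each stage has 1 library. Each member has 1 row. The 14 gene lists hold 308 entries, 246 of them measured, 8 through synonyms in a RefSeq gene table of assembly GRCg7b used for names only; other entries were not analysed here. Members and lists were chosen with earlier results of these data known. The rule for named genes took the members, the measured neuropilins, NR2 genes, class 3 semaphorins and VEGF ligands, the gene of each list with the highest mean FPKM and those with the widest differences from HH10 to HH13, and the 5 closest courses; lists of other cell types are given by sums, some items are not reported here, and other list genes in the text were named after their values were seen. Alternatives were pseudocounts of 0.1 and 5, other filters, 3 scalings, a 4-fold rule, CDH5 as reference and Pearson correlation. Counts without rows on chromosomes W and Z, unplaced scaffolds and ribosomal RNA were added without being planned. The code for calls and distances was run on simulated data with 4-fold changes planted in abundant genes, which it found. That run checks the code only. It says nothing of calls near 2-fold, of low genes such as NR2F2, or of error between libraries. Python 3.11.15 with pandas 2.3.3, numpy 2.4.6 and matplotlib 3.10.9 was used.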

Additional observations from a re-analysis of the deposited data

How the results depend on the processing

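Of the recomputed member differences under another pseudocount, scaling or row choice, 88 moved by less than 1.5-fold and 2 by more, and none that was called changed sign. Those under another row choice are among the 88 but could not move, since each member has 1 row, so they say nothing of stability. With a pseudocount of 5 FPKM, NR2F2 was 0.69 higher in HH13 than in HH12 and 0.81 than in HH11, both under 2-fold, because a larger pseudocount shrinks low genes. NR2F2 in HH11 against HH10 passed 2-fold with a pseudocount of 0.1 FPKM (-1.38) and with median-of-ratios scaling (-1.02). At the same total FPKM, APLNR passed 2-fold from HH12 to HH13 (-1.02) and NRP2 no longer did from HH11 to HH13 (0.90), nor without globin, ribosomal RNA and the highest unnamed row (0.98). Same-total scaling moved the median of all genes between HH10 and HH11 to 0.30, where APLNR was at 0.33 and NRP2 at 0.35. All 24 recomputed differences relative to endothelial genes moved by less than 1.5-fold. Over all genes, 541 were higher and 207 lower in HH13 than in HH10 with a pseudocount of 5, and 248 and 102 at 4-fold, against 1106 and 478. In HH11 against HH10 the 255 higher and 509 lower became 426 and 1025 with a pseudocount of 0.1, 109 and 194 with 5, 506 and 322 at the same total, and 63 and 83 at 4-fold. For the endothelial list in HH13 against HH10, 7 were higher with a pseudocount of 5 and 3 at 4-fold, in place of 13. Leaving out the W, Z, unplaced and ribosomal rows also takes genes out of that list, and of those left 10 were higher and 0 lower. That count is therefore not out of 24. In HH11 against HH10, 0 of that list were higher and 3 lower with a pseudocount of 5, 0 and 1 at 4-fold, against 1 and 10. With a pseudocount of 0.1 and with both same-total scalings, 2 were higher. With 1 library per stage no replicate could be left out, and the depth behind low FPKM values is unknown.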

Other observations

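Several genes of the other lists had a course closer to APLNR than any gene of the endothelial list. Since APLNR was chosen for its difference from most endothelial genes, its distance from that list is no separate finding. DLL1, a Notch ligand gene of paraxial mesoderm, lay at a distance of 0.16 on the log2 scale with 8.49, 7.92, 4.46 and 2.91 FPKM in stage order. GRK6 lay at 0.18. WNT5A, a Wnt ligand gene of the primitive streak and caudal mesoderm, lay at 0.20 with 31.4, 27.2, 17.1 and 12.6 FPKM. Over all genes the median distance to APLNR was 0.62.

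The blood and endothelial progenitor factors SCL and LMO2 were, like NR2F2, lowest in HH11. So were 20 of the 24 endothelial genes, SCL and LMO2 among them, beside 26.5% of all genes, so the low point is not particular to these factors. SCL had 64.5, 16.6, 67.5 and 105 FPKM, and LMO2 had 58.7, 13.4, 45.5 and 86.9 FPKM. In HH12, where NR2F2 stood at 1.96 FPKM against 3.76 in HH10, SCL was again at its HH10 level and LMO2 was still below its own.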
